A study of Mus musculus with 6 samples.

Results

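The transcripts of 3 JAK kinases (Jak1, Jak2 and Tyk2) and 6 STAT factors (Stat2, Stat3, Stat4, Stat5a, Stat5b and Stat6) were examined in mouse dendritic cells cultured with or without DB2313. The rows were taken by gene symbol. They are 9 of 54532 genes in the count table, and all 9 were among the 14174 genes with enough reads to be tested. The other genes of both families were not analysed here.

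Bulk RNA-seq had been done on 3 libraries labelled Control and 3 labelled DB2313, all from Mus musculus and all labelled dendritic cell, kept in medium with fetal bovine serum and antibiotics. DB2313 is a small molecule that the study used as an inhibitor of Spi1 (PU.1), an ETS-family transcription factor of macrophages and dendritic cells. The comparison asks which transcripts differed between the DB2313 and the Control libraries, and the activity of Spi1 in them was not measured. The labels gave no strain, genotype, age, dose, time of exposure or vehicle, and the study's text described macrophages where the labels say dendritic cell. The labels also did not say whether the libraries of a group came from separate animals or cultures, so p-values measure the spread between these samples, which may be technical. The table columns of the treated libraries bore the name of Spi1, and directions rest on reading them as the DB2313 libraries.

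JAK kinases sit on the inner side of cytokine receptors that have no kinase of their own. When a cytokine joins its receptor chains, the kinases phosphorylate the receptor and the STAT factors that dock on it, and the STAT factors pair up, enter the nucleus and bind DNA. Most STAT pairs bind palindromic GAS elements, whereas STAT2 acts with IRF9 on the interferon-stimulated response element (ISRE). In dendritic cells, GM-CSF signals through JAK2 and STAT5, IL-4 through STAT6, IL-10 and IL-6 through STAT3, IL-12 through STAT4, and type I interferons through JAK1, TYK2 and STAT2. RNA-seq counts transcripts. Phosphorylation, by which these proteins are switched on, was not measured.

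Promoter windows of 300 bases (250 before and 50 after the annotated start, RefSeq, GRCm38.p6) were found for 9 of 9 members, 12 windows in all. Both strands were searched for the GAS pattern TTCNNNGAA, the ISRE-like pattern GAAANNGAA and GAGGAA, a form of the ETS core GGAA that PU.1 favours. No match of a pattern overlapped a match of another in these windows. The sequences below are those of Jak2, the member that passed the test between groups, of Stat2, which held an ISRE-like match, and of Stat6, which held GAGGAA matches. Capitals mark the matches, which read as reverse complements on the strand printed.
Jak2, chr19:29251553-29251852, plus strand: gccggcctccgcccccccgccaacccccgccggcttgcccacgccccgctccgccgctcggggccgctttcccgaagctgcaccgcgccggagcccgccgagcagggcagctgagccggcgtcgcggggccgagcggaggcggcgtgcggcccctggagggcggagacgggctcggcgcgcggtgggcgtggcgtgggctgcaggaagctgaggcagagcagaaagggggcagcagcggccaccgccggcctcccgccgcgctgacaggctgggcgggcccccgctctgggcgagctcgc
Stat2, chr10:128270248-128270547, plus strand: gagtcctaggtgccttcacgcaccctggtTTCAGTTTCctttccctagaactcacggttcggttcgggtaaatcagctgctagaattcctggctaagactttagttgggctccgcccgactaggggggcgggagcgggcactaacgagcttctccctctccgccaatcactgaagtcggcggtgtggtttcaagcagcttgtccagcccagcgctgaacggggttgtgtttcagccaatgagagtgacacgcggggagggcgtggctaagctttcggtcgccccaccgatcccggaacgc
Stat6, chr10:127642736-127643035, plus strand: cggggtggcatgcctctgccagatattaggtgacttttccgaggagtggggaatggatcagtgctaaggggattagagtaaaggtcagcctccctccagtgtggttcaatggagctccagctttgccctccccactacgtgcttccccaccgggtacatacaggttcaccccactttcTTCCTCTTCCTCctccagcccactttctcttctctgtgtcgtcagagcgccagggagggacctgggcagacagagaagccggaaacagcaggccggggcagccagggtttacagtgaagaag
The Stat2 match began 221 bases upstream of the RefSeq start. For Stat2 and Jak2 this start lies before the start of the gene in the count table. The whole Stat2 window ends before that gene begins, at chr10:128270559. The Stat6 matches lay back to back, 72 and 66 bases upstream. The Jak2 window held none of the patterns. ISRE-like matches were present in 2 of the 12 windows (the other was in the window of the second start of Stat4, 97 bases upstream), against 8.56% of 32851 promoter windows of the same length. GAGGAA was present in 2 of the 12 (the other was in the window of the second start of Stat5a, 33 bases upstream), against 28.3% of all windows, and the GAS pattern in 0 of the 12, against 8.30%. A match is a description of letters and not evidence of binding.

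Total counts ran from 16146743 to 19764677 per library, and the 9 members together took 0.219% to 0.261% of them. Each member had at least 1263 reads in every library. DB2313 replicates 1 and 3 differed most within a group (chi-square per degree of freedom of 17.7, against 4.77 to 8.60 for the other pairs of libraries of a group). Of the dendritic cell markers, 11 of 12 were tested and their summed level was 11641 to 11856 CPM (CPM being the read count scaled to a common library size) in Control and 9970 to 11664 CPM in DB2313. Cd209a was at 0 to 4 reads and Xcr1 at 14 to 21 reads, whereas H2-Ab1, a class II chain, averaged 1309.8 CPM in Control and 1241 CPM in DB2313. Of the 11 dendritic cell markers tested, 2 fell and 1 rose, with a median log2 fold change of -0.19. Macrophage markers were also present, at a summed 9819 to 11197 CPM in Control and 8819 to 9704 CPM in DB2313, and 5 of 10 fell while 1 rose. Neutrophil markers summed to 3186 to 3555 CPM in Control and 3409.5 to 4341 CPM in DB2313, and 3 of 8 rose. Mast cell and basophil markers summed to 2480 to 2681 CPM in Control and 2523 to 3014 CPM in DB2313, and 1 of 9 tested rose. Of all tested genes, 10.6% were called in either direction (edgeR adjusted p under 0.05). The 1 of 9 mast cell and basophil markers, 11.1%, is close to that share. B cell markers summed to at most 6.68 CPM. The part of these markers in the results on the members was not tested. In bulk libraries, fewer cells of a type and less RNA per cell cannot be told apart.

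Of the 9 members, 1 was lower and 0 were higher with DB2313 at an adjusted p under 0.05 (edgeR quasi-likelihood test), beside 10.6% of all tested genes called in either direction, 4.66% higher and 5.94% lower. The member that passed, Jak2, amounts to 11.1% of the 9, close to that background. At an unadjusted p under 0.05 there were 4 members (Jak1, Jak2, Stat2 and Stat4), beside 23.3% of all genes. The 3 DB2313 libraries lay outside the Control range for 5 members (Stat2 and Stat5a above it, Jak1, Jak2 and Stat6 below it), which was the case for 27.4% of all genes. The median log2 fold change was -0.22 over the 3 kinases, -0.01 over the 6 STAT genes and 0.00 over all tested genes.

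Jak2 encodes the kinase of the receptors for GM-CSF, IL-3, growth hormone and erythropoietin, and also serves the interferon gamma receptor. The gene (ENSMUSG00000024789) lies at GRCm38 chr19:29251828-29313080 on the plus strand, with 25 merged exons. Jak2 stood at 730.0, 810.0 and 712 CPM in Control replicates 1 to 3 and at 602, 638 and 644 CPM in DB2313 replicates 1 to 3. The highest DB2313 library was 68.2 CPM below the lowest Control library. The mean fell from 751 ± 52.2 CPM to 628 ± 22.7 CPM (SD, n = 3 each), which is a log2 fold change of -0.26 ± 0.07 (SE, 95% interval -0.41 to -0.11, edgeR adjusted p = 0.0272). This call needed most of the libraries. It was lost without Control replicate 1 (-0.28, adjusted p = 0.0719), Control replicate 2 (-0.19, adjusted p = 0.194), Control replicate 3 (-0.29, adjusted p = 0.0615) or DB2313 replicate 2 (-0.27, adjusted p = 0.113). Jak2 has no near-identical copy among the annotated transcripts and no overlapping gene.

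Jak1 encodes a kinase shared by the interferon receptors, the gp130 receptors and the receptors with the common gamma chain. It lies at chr4:101152367-101265282 on the minus strand (ENSMUSG00000028530, 28 merged exons). Jak1 was at 307, 333 and 304 CPM in the Control libraries and at 252, 268 and 292 CPM in the DB2313 libraries, in the order of their replicate numbers. All 3 DB2313 values were below all 3 Control values, by at least 12.2 CPM. The log2 fold change was -0.22 ± 0.07 (95% interval -0.38 to -0.06), and it did not pass (edgeR adjusted p = 0.0758). Without DB2313 replicate 3, the highest of that group, it was -0.28 and passed (adjusted p = 0.00632). Without any other single library it did not pass (adjusted p = 0.146 to 0.322).

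Tyk2 encodes the partner kinase of Jak1 at the type I interferon receptor and of Jak2 at the IL-12 receptor. The gene is at chr9:21104068-21131243 on the minus strand (ENSMUSG00000032175, 22 merged exons). Tyk2 was at 237, 261 and 248 CPM in Control and at 220.5, 213 and 239 CPM in DB2313, and the groups overlapped, since DB2313 replicate 3 was above Control replicate 1. The log2 fold change was -0.15 ± 0.07 (95% interval -0.30 to 0.00, edgeR adjusted p = 0.226). An antisense gene covers 8.07% of the Tyk2 exons and had no reads, and stretches of 103 and 121 bases occur with at least 95% identity in 2 other genes.

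**Figure D1:**
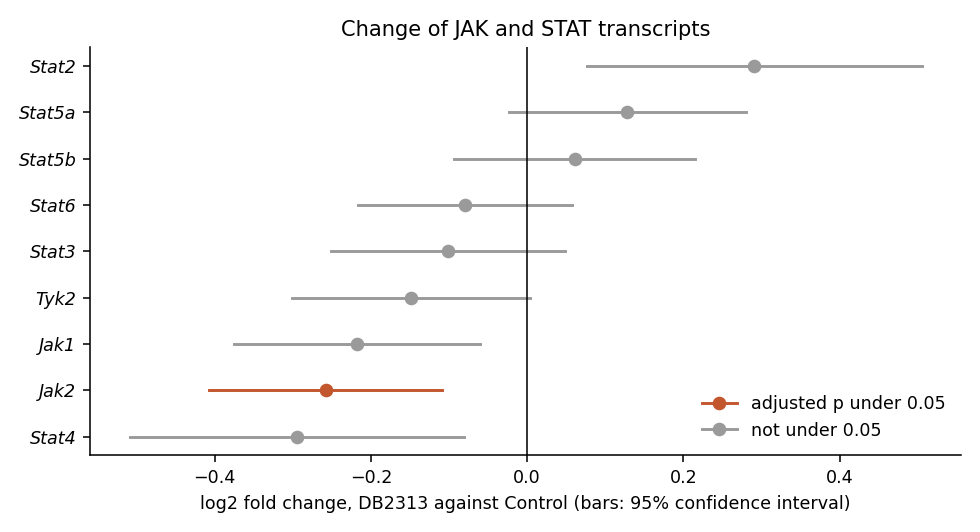
Log2 fold change of each member, DB2313 against Control, from the edgeR fit of 3 against 3 libraries, with bars for the 95% confidence interval. Jak2 is the only member with an adjusted p under 0.05, and the intervals of Stat2, Jak1 and Stat4 also leave out 0 before adjustment.

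Stat2 encodes the interferon-specific STAT, best known from its complex with IRF9. The gene is at chr10:128270559-128292849 on the plus strand (ENSMUSG00000040033, 19 merged exons). Stat2 was at 107, 109.5 and 98.5 CPM in Control and at 109.7, 124 and 151 CPM in DB2313. DB2313 replicate 3 stood far above the rest, while DB2313 replicate 1 exceeded the highest Control library by just 0.197 CPM. The mean was 105 ± 5.73 CPM in Control and 128 ± 20.98 CPM in DB2313, with a log2 fold change of 0.29 ± 0.10 (95% interval 0.08 to 0.50) that did not pass (edgeR adjusted p = 0.0808). It passed without DB2313 replicate 1 (0.39, adjusted p = 0.00190), and it was 0.16 without DB2313 replicate 3. Without any single library other than DB2313 replicate 1 it did not pass (adjusted p = 0.148 to 0.261). Stretches of 100 to 152 bases of the Stat2 transcripts occur with at least 95% identity in transcripts of 54 other genes, and how reads from them were counted was not given.

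Stat4 encodes the factor downstream of IL-12, known best from T and NK cells and also made by dendritic cells. It is at chr1:51987148-52107189 on the plus strand (ENSMUSG00000062939, 26 merged exons). Stat4 was at 99.3, 119 and 111 CPM in Control and at 100.5, 92.2 and 75.9 CPM in DB2313. The groups overlapped through DB2313 replicate 1 and Control replicate 1, and DB2313 replicate 3 was the lowest of the 6. The log2 fold change was -0.29 ± 0.10 (95% interval -0.51 to -0.08), similar in size to that of Stat2 with the opposite sign, and it did not pass (edgeR adjusted p = 0.0774). It passed without DB2313 replicate 1 (-0.38, adjusted p = 0.00519), and without any other single library it did not (adjusted p = 0.0862 to 0.339). T and NK cell markers were also lowest in DB2313 replicate 3, at a summed 223 CPM, against 270 to 326 CPM in the other DB2313 libraries and 233 to 289 CPM in Control. Of these markers 10 of 11 were tested, 0 were called in either direction, and Ncr1 was at 1 to 10 reads. Their part in the level of Stat4 was not tested. A non-coding gene on the same strand shares 26.7% of the Stat4 exon bases and had at most 7 reads in a library.

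Stat3 encodes the factor used by IL-6, IL-10 and G-CSF, and restrains the maturation of dendritic cells. The gene is at chr11:100885098-100939540 on the minus strand (ENSMUSG00000004040, 21 merged exons). Stat3 was at 388, 446 and 436 CPM in Control and at 389, 392 and 403 CPM in DB2313. Control replicate 1 was level with the DB2313 libraries and the other 2 Control libraries were above them. The log2 fold change was -0.10 ± 0.07 (95% interval -0.25 to 0.05, edgeR adjusted p = 0.429). Similar stretches of 100 to 114 bases occur in 10 other genes.

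Stat5a and Stat5b encode the closely related factors of GM-CSF, IL-2 and IL-3 signalling. They lie side by side with Stat3 on chromosome 11, Stat5a at chr11:100859351-100885169 on the plus strand (ENSMUSG00000004043, 16 merged exons) and Stat5b at chr11:100780731-100850724 on the minus strand (ENSMUSG00000020919, 20 merged exons). Stat5a was at 127, 135 and 129 CPM in Control and at 137, 149.8 and 139.8 CPM in DB2313. The DB2313 libraries were all above the Control libraries, by at least 1.88 CPM, and the log2 fold change was 0.13 ± 0.07 (95% interval -0.02 to 0.28, edgeR adjusted p = 0.306). Stat5b was at 157, 157 and 164 CPM in Control and at 157, 164 and 179 CPM in DB2313, with overlapping groups and a log2 fold change of 0.06 ± 0.07 (95% interval -0.09 to 0.22, adjusted p = 0.679). The transcripts of this pair share a stretch of 440 bases with 96.4% identity, and reads from it could be counted for either gene. Stat3 and Stat5a overlap by 72 bases on opposite strands, which is 0.756% of the Stat3 exons and 1.01% of the Stat5a exons.

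Stat6 encodes the factor of IL-4 and IL-13. It is at chr10:127642986-127660957 on the plus strand (ENSMUSG00000002147, 21 merged exons). Stat6 was at 261, 270.5 and 261 CPM in Control and at 245, 252 and 253 CPM in DB2313. The libraries of each group lay close together and the groups were 7.59 CPM apart. The log2 fold change was small, -0.08 ± 0.06 (95% interval -0.22 to 0.06, edgeR adjusted p = 0.515). Stat6 overlaps its neighbour on the opposite strand by 40 bases, 0.909% of its exons.

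**Figure D2:**
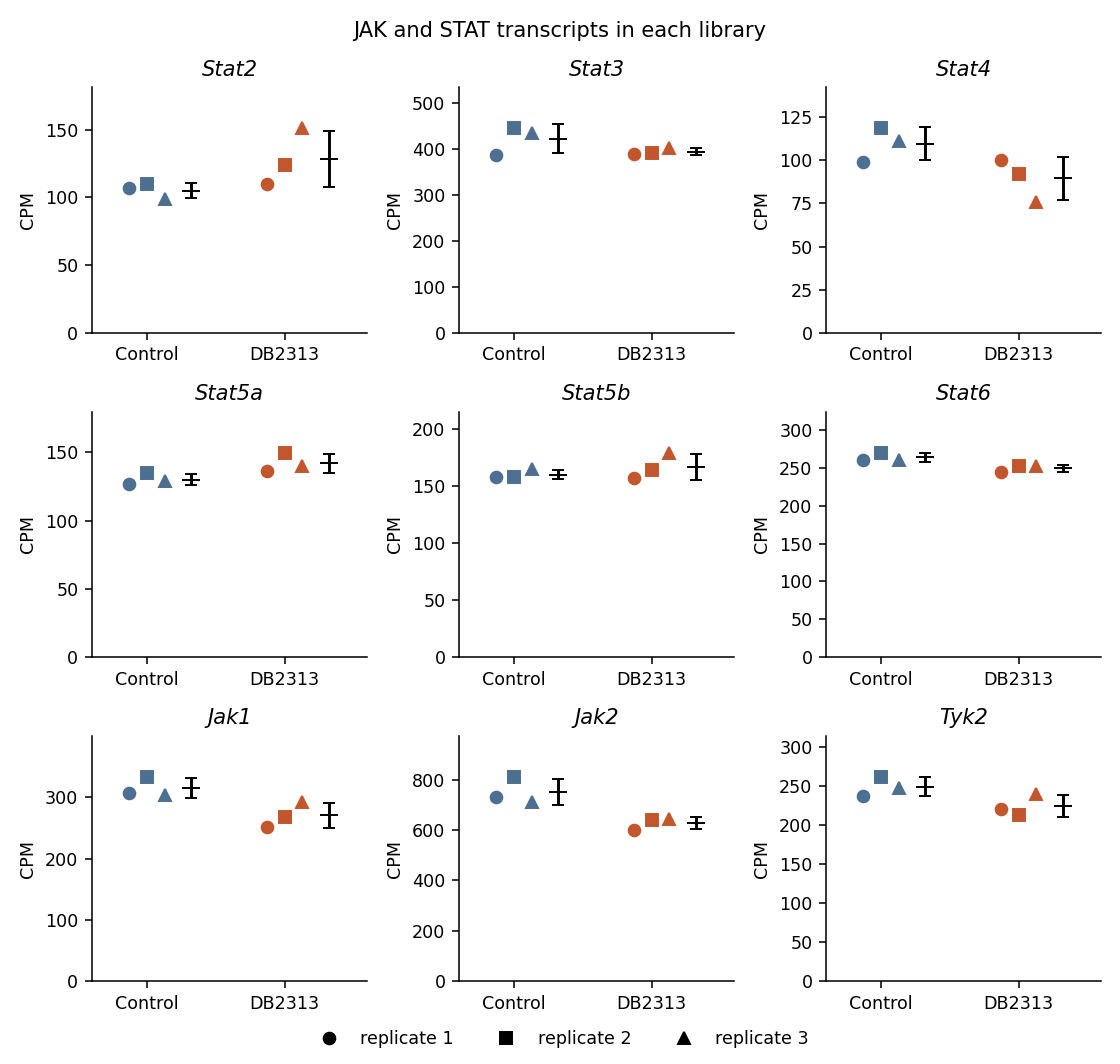
Level of each member in CPM (linear axis from 0) in 3 Control and 3 DB2313 libraries, with the marker shape giving the replicate number and the black bar the mean and SD of the group. Jak2 shows the widest gap between groups (68.2 CPM), and DB2313 replicate 3 is the highest library for Stat2 and the lowest for Stat4.

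The gene lengths were those of all annotated exons merged, not of the transcripts present, so levels per kilobase compare only roughly between genes. By this measure Jak2 was the most abundant of the 9 in Control, at 149 ± 10.4 CPM per kb. Stat6 followed at 59.98 ± 1.27, then Stat3 at 44.4 ± 3.24, Jak1 at 43.5 ± 2.20, Tyk2 at 36.2 ± 1.77, Stat5b at 28.8 ± 0.753, Stat4 at 28.4 ± 2.54, Stat5a at 18.2 ± 0.580 and Stat2 at 17.7 ± 0.966 CPM per kb (SD, n = 3). The Control ranges of Stat3 and Jak1 overlapped, as did those of Stat5b and Stat4 and those of Stat5a and Stat2, while the other neighbours in this order were apart. In DB2313 the order kept Jak2 (125 CPM per kb), Stat6 (56.8) and Stat3 (41.4) at the top. Stat2 (21.7 CPM per kb) came before Stat5a (19.9) there, but their ranges overlapped, as did those of Stat4 (23.1) and Stat2, of Jak1 (37.4) and Tyk2 (32.7), and of Tyk2 and Stat5b (30.1).

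Within a library, the share of each gene in the summed length-normalised counts of its family needs no scaling between libraries. Stat2 made up 9.48%, 9.03% and 8.39% of the 6 STAT genes in Control and 9.83%, 10.8% and 12.95% in DB2313. The share of Stat4 was 13.5%, 15.0% and 14.5% in Control and 13.8%, 12.3% and 9.96% in DB2313, so DB2313 replicate 3 held both the largest Stat2 share and the smallest Stat4 share. The shares of Stat5a and Stat5b were also above the Control range in all 3 DB2313 libraries (means of 9.23% and 10.3% for Stat5a, 14.6% and 15.6% for Stat5b), and that of Stat6 was below it (30.4% and 29.4%). For Stat5b the margin was thin, with 15.05% in DB2313 replicate 1 against 14.99% in Control replicate 3. Each of these 4 non-overlapping shares had p = 0.1 in a two-sided exact permutation test, the smallest p that 3 against 3 libraries allow (0.225 after adjustment over 9 shares). Shares of a family add up to the whole, so a rise in some lowers the others, and they are not independent. How often such shares separate among other genes was not computed. Among the 3 kinases Jak2 made up 65.1% ± 0.652 in Control and 64.0% ± 1.05 in DB2313 (exact p = 0.2), Jak1 19.0% and 19.2%, and Tyk2 15.8% and 16.8%. The ratio of Jak2 to Jak1 counts was 2.34 to 2.43 in Control and 2.20 to 2.39 in DB2313 (exact p = 0.7), while the ratio of Stat2 to Stat3 counts was 0.226 to 0.275 in Control and 0.282 to 0.375 in DB2313 (exact p = 0.1, adjusted over 5 ratios 0.333).

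**Figure D3:**
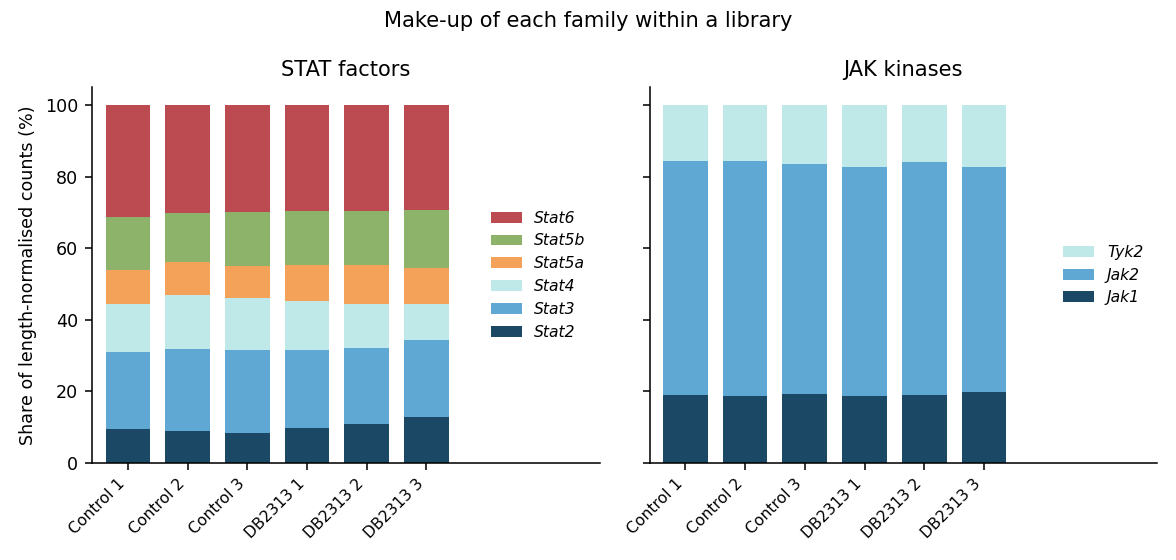
Share of each gene (stacked bars, percent) in the length-normalised counts of the 6 STAT genes and of the 3 JAK genes in every library. Jak2 takes 63.0% to 65.7% of the kinase total in all 6 libraries, and the Stat2 band is widest in DB2313 replicate 3 (12.95%).

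The 2 protein-coding genes whose level relative to their own mean was most like that of Jak2 over the 6 libraries, of 11210 compared, were Stox2 (root mean square difference of 0.0155 in log2(CPM + 0.5)) and Rdx, which encodes radixin (0.0194). The added 0.5 damps differences of low genes, and Stox2 averaged just 2.51 CPM in Control. Its fitted log2 fold change of -0.34 was larger than that of Jak2 and did not pass (edgeR adjusted p = 0.534), so its likeness to Jak2 rests on damped values. Rdx had a fitted log2 fold change of -0.27.

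Around the members, 167 genes of the pathway were listed from general knowledge as receptors, ligands, inhibitors, partners and targets of single STAT factors, and 144 of them were tested. Of these, 20 rose and 26 fell (31.9% called, beside 10.6% of all genes), and their median log2 fold change was -0.05. The number that fell was 14 without Control replicate 1, 16 without Control replicate 2, 14 without Control replicate 3 and 13 without DB2313 replicate 2. Some genes stand in several lists, such as Il4ra and Pim1. The lists were written with earlier results of these data known, so their counts are descriptions.

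Class II cytokine receptors, which include the interferon and IL-10 receptors, gave 1 gene that rose and 2 that fell among 8 tested of 10. That is 37.5% called, beside 10.6% of all tested genes, and the list median was -0.14. Ifngr1, the ligand-binding chain of the interferon gamma receptor, was at 219, 203 and 196 CPM in Control and at 260.4, 269 and 276 CPM in DB2313. It rose in all 3 treated libraries (log2 fold change 0.38 ± 0.07, edgeR adjusted p = 0.00214). Ifnlr1, the specific chain of the interferon lambda receptor, fell from 14.0 ± 0.894 to 8.03 ± 1.09 CPM (-0.80 ± 0.15, adjusted p = 0.00268). Il10ra, the ligand-binding chain of the IL-10 receptor, fell from 181 ± 3.44 to 153 ± 0.925 CPM (-0.24 ± 0.07, adjusted p = 0.0268), a call that was lost without Control replicate 1, 2 or 3 or DB2313 replicate 2 (adjusted p = 0.0799 to 0.148), or with no filter on low counts (0.0557). The chains of the type I interferon receptor did not pass, with log2 fold changes of -0.18 for Ifnar1 (adjusted p = 0.164) and 0.14 for Ifnar2 (adjusted p = 0.287).

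Class I cytokine receptors gave 1 gene that rose and 6 that fell among 26 tested of 30 (26.9% called, beside 10.6% of all genes). The list median was -0.13. The number that fell was 2 without Control replicate 1, 3 without Control replicate 3, 2 without DB2313 replicate 2 and 8 without DB2313 replicate 3, and the median was -0.08 without DB2313 replicate 2 and -0.21 without DB2313 replicate 3. The number that rose was 3 without DB2313 replicate 3. Il2ra, the alpha chain of the IL-2 receptor and itself a STAT5 target, was at 57.4, 62.2 and 65.1 CPM in Control and at 37.6, 35.2 and 34.8 CPM in DB2313. It had the largest fall of the list (-0.78 ± 0.09, edgeR adjusted p = 3.77e-05), with a wide gap between groups. Csf2rb2, the IL-3 receptor chain that closely resembles the common beta chain Csf2rb, fell from 912 ± 47.9 to 676 ± 59.4 CPM (-0.43 ± 0.08, adjusted p = 0.00169). The division of reads between Csf2rb2 and Csf2rb is uncertain, and Csf2rb itself went from 2219 to 1987 CPM without passing (-0.16 ± 0.07, adjusted p = 0.171). Csf3r, the G-CSF receptor, fell from 51.0 ± 3.83 to 38.4 ± 2.21 CPM (-0.41 ± 0.09, adjusted p = 0.00863), and did not pass without Control replicate 1 (adjusted p = 0.0604) or DB2313 replicate 2 (adjusted p = 0.0734). Il13ra1, the IL-13 receptor chain that pairs with Il4ra, was the gene that rose, from 42.2 ± 2.60 to 57.9 ± 2.72 CPM (0.46 ± 0.09, adjusted p = 0.00268).

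Of 27 ligands of JAK-coupled receptors 12 were tested, and 3 of the rest (Il5, Il21 and Il22) were at 0 reads in all 6 libraries. Il12b, the p40 subunit of IL-12 and IL-23, fell from 29.4, 32.9 and 31.0 CPM in Control to 17.3, 15.4 and 13.4 CPM in DB2313 (-1.02 ± 0.12, edgeR adjusted p = 4.88e-05). Every treated library was far below every Control library. Il7, the lymphocyte growth factor, rose from 2.16 ± 0.157 to 4.78 ± 0.862 CPM (1.14 ± 0.25, adjusted p = 0.00884) on 32 to 95 reads per library. The ligand list had 1 gene that rose and 1 that fell (16.7% called, beside 10.6% of all genes), and a median of 0.02.

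Among 20 inhibitors of the pathway, all tested, 0 rose and 1 fell (list median -0.09). The 5% called was below the 10.6% of all tested genes. The number that fell was 2 without DB2313 replicate 1 and 3 without DB2313 replicate 3. That gene was Ptpn1, the phosphatase PTP1B that removes phosphate from JAK2 and TYK2, which went from 399, 397 and 393 CPM in Control to 307, 329 and 349 CPM in DB2313 (-0.27 ± 0.07, edgeR adjusted p = 0.0182). The call was lost without Control replicate 1, 2 or 3 or DB2313 replicate 2 (adjusted p = 0.0757 to 0.104), although the groups stood well apart. Socs1, Cish and Socs3, which are among the feedback inhibitors that STAT factors induce, had intervals around 0. Their log2 fold changes were 0.01 ± 0.11, 0.01 ± 0.09 and -0.15 ± 0.13. Among 11 partners and adaptors, 1 rose and 0 fell (list median 0.04), and 2 fell without DB2313 replicate 3. Here too the share called, 9.09%, was below that of all tested genes. Shc1, an adaptor that links receptors to the Ras pathway, was at 117, 117 and 127 CPM in Control and at 150.0, 166 and 182 CPM in DB2313 (0.47 ± 0.08, adjusted p = 0.00167). Irf9, the DNA-binding partner of STAT2, was level, at 116 ± 5.85 and 119 ± 2.46 CPM (0.04 ± 0.07, adjusted p = 0.771).

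**Figure D4:**
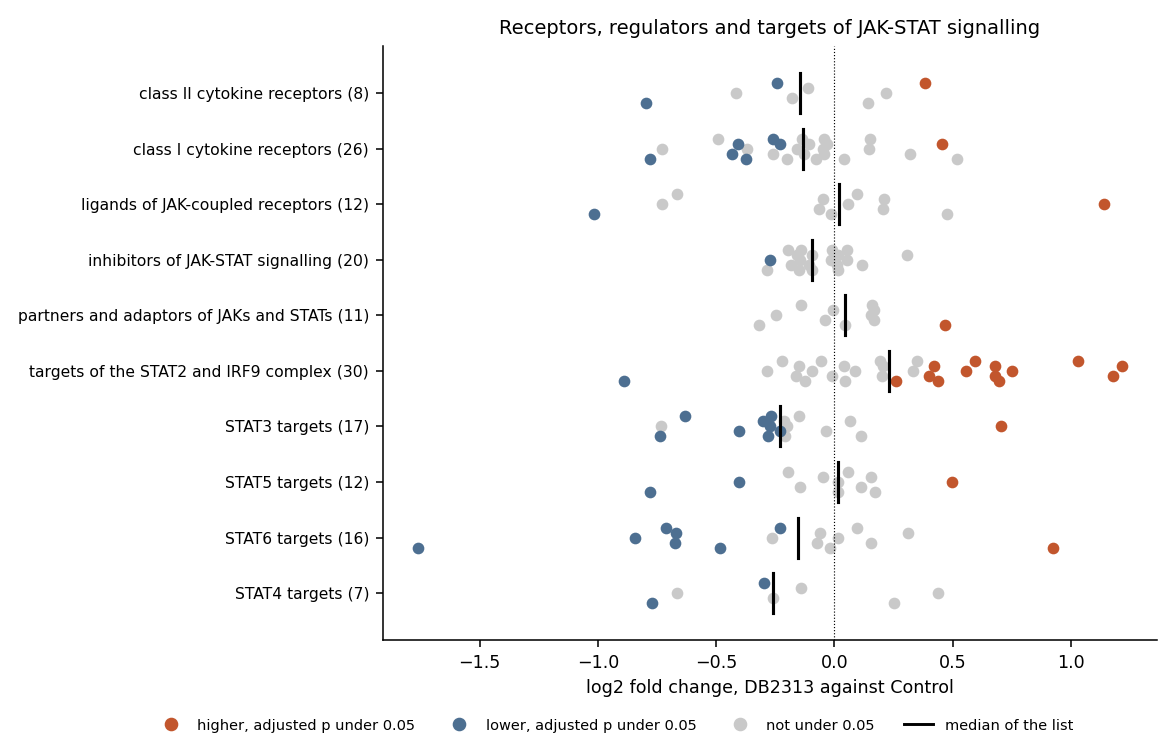
Log2 fold changes (DB2313 against Control) of the tested genes of 10 lists, with the number tested in brackets, 1 point a gene, and a black line for the list median. The STAT2 and IRF9 targets hold 13 genes that rose and 1 that fell, and the STAT3 and STAT6 targets hold 8 and 7 that fell and 1 each that rose.

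The targets of the STAT2 and IRF9 complex, which make antiviral proteins, were the list with the most genes that rose. Of 30 tested, 13 rose and 1 fell (46.7% called), the median log2 fold change was 0.23, and 17 genes were higher in every treated library than in every Control library, which held for 12.9% of all tested genes. Oasl1, a member of the oligoadenylate synthetase family, was at 16.2, 17.2 and 16.9 CPM in Control and at 36.1, 37.0 and 44.0 CPM in DB2313 (1.22 ± 0.11, edgeR adjusted p = 4.73e-06). Ifit3 rose from 11.5 ± 0.0979 to 25.9 ± 4.49 CPM (1.18 ± 0.13, adjusted p = 4.88e-05) and Ifit1, which binds viral RNA caps, from 15.9 ± 1.14 to 32.5 ± 5.91 CPM (1.03 ± 0.13, adjusted p = 0.000127). For these 3 genes DB2313 replicate 3 was the highest library, as it was for Stat2, and a link between them was not tested. Ifi44 went the other way, from 6.77 ± 0.385 to 3.67 ± 1.35 CPM (-0.89 ± 0.24, adjusted p = 0.0290, and 0.0668 to 0.144 without Control replicate 1, 2 or 3 or DB2313 replicate 2). Without Control replicate 2 the number that rose was 8, and without DB2313 replicate 1 or 3 the number that fell was 2 or 4. The Oas, Oasl and Ifit genes form families of similar sequence, so the division of reads within them is uncertain.

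Of the STAT3 targets, 17 of 18 were tested, 1 rose and 8 fell (52.9% called), with a median of -0.23. Bcl3, a nuclear partner of NF-kappaB, was at 67.1, 64.0 and 67.1 CPM in Control and at 42.6, 36.2 and 40.4 CPM in DB2313 (-0.74 ± 0.09, edgeR adjusted p = 6.77e-05). Fos, an immediate early factor, fell from 47.8 ± 11.6 to 30.9 ± 2.23 CPM (-0.63 ± 0.14, adjusted p = 0.00796, and 0.0529 without Control replicate 1). Pim1, a kinase gene that both STAT3 and STAT5 induce, fell from 253 ± 7.62 to 191 ± 8.42 CPM (-0.40 ± 0.07, adjusted p = 0.00127). Ccnd1, which encodes cyclin D1, rose from 25.8 ± 1.89 to 42.1 ± 4.35 CPM (0.71 ± 0.10, adjusted p = 0.000440). The number of STAT3 targets that fell was 3 without Control replicate 1, 4 without Control replicate 2, 3 without Control replicate 3 and 3 without DB2313 replicate 2.

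STAT6 targets, many of which mark macrophages and dendritic cells exposed to IL-4, gave 7 genes that fell and 1 that rose among 16 tested of 18 (50% called, median -0.15). Arg1, arginase 1, was at 62.5, 53.3 and 61.3 CPM in Control and at 21.1, 14.5 and 16.9 CPM in DB2313. It fell the most of all listed genes (-1.76 ± 0.12, edgeR adjusted p = 7.09e-07). Pdcd1lg2, the PD-1 ligand PD-L2, fell from 62.1 ± 5.27 to 34.7 ± 6.53 CPM (-0.84 ± 0.12, adjusted p = 0.000288) and Mrc1, the mannose receptor, from 130.0 ± 26.9 to 79.4 ± 14.2 CPM (-0.71 ± 0.14, adjusted p = 0.00325). Mgl2, a C-type lectin of dendritic cells and macrophages, rose from 113 ± 6.09 to 215 ± 27.9 CPM (0.92 ± 0.09, adjusted p = 1.37e-05). Beside these, 5 of the 10 macrophage markers fell, Mrc1 being in both lists, and 2 of 11 dendritic cell markers fell while 1 rose, and the part of these cell markers in the target lists was not tested.

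STAT5 targets gave 1 gene that rose and 2 that fell among 12 (25% called, beside 10.6% of all genes, median 0.01). Il2ra and Pim1, named above, fell. Id1, an inhibitor of basic helix-loop-helix factors, was at 17.1, 14.5 and 18.9 CPM in Control and at 26.1, 26.6 and 18.4 CPM in DB2313, where replicate 3 lay within the Control range (0.50 ± 0.15, edgeR adjusted p = 0.0413). Its call was lost without Control replicate 1, 2 or 3 or DB2313 replicate 1 or 2 (adjusted p = 0.0577 to 0.211), or with limma-voom (adjusted p = 0.0547). Without DB2313 replicate 1, 3 of the list fell and its median was -0.07, and without DB2313 replicate 3, 2 rose. STAT4 targets gave 0 genes that rose and 2 that fell among 7 (28.6% called, median -0.26). The median was -0.13 without Control replicate 2 and -0.15 without DB2313 replicate 1, and 2 genes rose without DB2313 replicate 3, with library totals, with DESeq2 or with no filter. Il18r1 fell from 19.7 ± 1.10 to 11.5 ± 0.382 CPM (-0.77 ± 0.12, adjusted p = 0.000642). Il18rap, the other chain of the IL-18 receptor, fell from 66.5 ± 3.30 to 54.0 ± 2.53 CPM (-0.30 ± 0.08, adjusted p = 0.0270), and did not pass without Control replicate 1, 2 or 3 or DB2313 replicate 2 (adjusted p = 0.0586 to 0.167).

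The median log2 difference of the STAT2 and IRF9 targets from the Control mean was 0.16, 0.19 and 0.33 in DB2313 replicates 1 to 3. It was -0.001, -0.021 and 0.011 in Control replicates 1 to 3. Control values lie around 0 by construction, since each gene's own Control mean was subtracted. DB2313 replicate 3 held the highest target median and the highest Stat2 level, and DB2313 replicates 1 and 3 differed most within a group. The STAT3 target medians were -0.25, -0.25 and -0.19, while Stat3 itself was near the lowest Control library in all 3. For STAT6 targets the medians were -0.14, -0.24 and -0.28, and for STAT4 targets -0.25, -0.17 and -0.10, the least negative in DB2313 replicate 3, where Stat4 was lowest. STAT5 targets were split, at 0.08, -0.07 and -0.09. Whether the level of a STAT gene bears on the level of its targets was not tested.

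**Figure D5:**
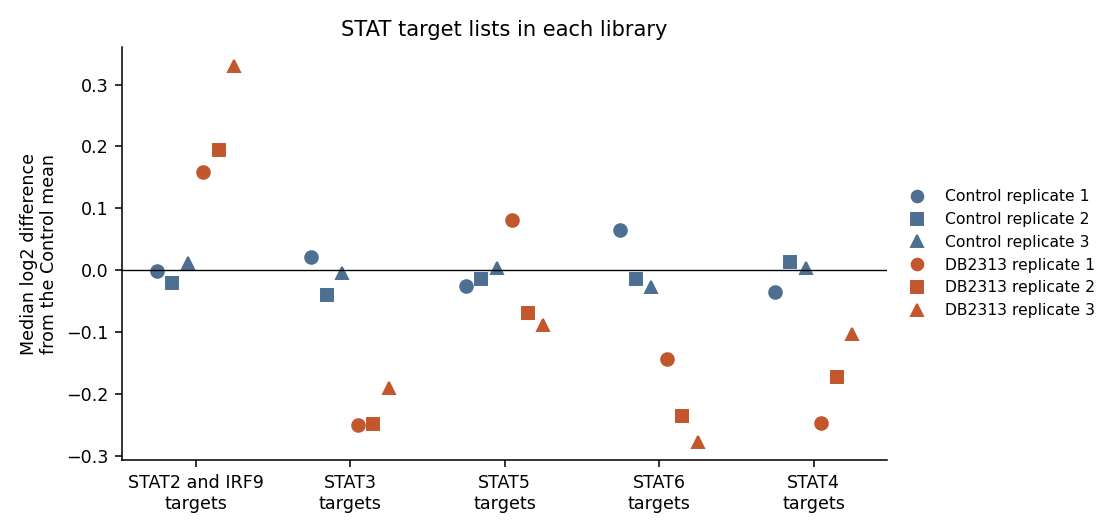
Median log2 difference from the Control mean over the genes of each STAT target list (vertical axis, log2 scale), 1 point a library. The treated libraries lie above all Control libraries for the STAT2 and IRF9 targets and below them for the STAT3, STAT6 and STAT4 targets, and on both sides of 0 for the STAT5 targets.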

How the data were processed

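RNA-seq was performed on 3 Control and 3 DB2313 libraries of mouse dendritic cells. The values deposited by the authors are raw counts of reads, whole and not normalised, with 1 column per library. The submitters' processing notes name CASAVA 1.8, HISAT2 2.0.5 and featureCounts 1.5.0-p3, whereas the study's methods name LifeScope and DESeq2. The genome build, strandedness and handling of multi-mapped reads were not given in the sources used here. Start and end were identical in GENCODE M21 for 98.3% of the 54495 identifiers found in both, hence coordinates are GRCm38. Every column was used, and every row named a gene.

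Groups were compared with edgeR 4.0.16 (R 4.3.3) by its quasi-likelihood F test, using TMM factors, filterByExpr and Benjamini-Hochberg adjustment over 14174 genes. A gene was called at an adjusted p under 0.05. CPM used TMM-scaled library sizes, levels per kb the deposited gene lengths, and shares an exact permutation test. The biological coefficient of variation was 9.66%. Alternatives used DESeq2 1.42.0, limma 3.58.1 (voom), other scalings and filters, a gene length offset (lowess span 0.3), a replicate block and the omission of each library. The scripts were tested on simulated counts. Copies were searched with blastn 2.17.0 (at least 95% identity over 100 bases). The libraries had no stated molecular identifiers, so errors are those between libraries.

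The members and gene lists were chosen with earlier results of these data known. The rule for named genes took all 9 members, up to 3 called genes with the highest and 3 with the lowest fold change in each list (mean log2 CPM of at least 1), the 2 genes most like each called member, and cell markers near 0 reads. Ifnar1, Ifnar2, Csf2rb, Socs1, Socs3, Cish, Irf9, H2-Ab1, Il4ra, Il5, Il21 and Il22 were named after their values were seen. The counts of STAT2 and IRF9, STAT3 and STAT6 targets under the alternatives were also added then.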

Additional observations from a re-analysis of the deposited data

How the results depend on the processing

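All 9 members kept their sign under all 15 alternatives. Stat3, Stat5a, Stat5b, Stat6 and Tyk2 were called under none, and Jak2 (-0.29 to -0.19) under 10 of 15. Libraries of the same replicate number did not deviate together (correlations of deviations from the group means of -0.18 to -0.02). With the replicate block, 0 members were called lower (Jak2 adjusted p = 0.0922), the calls of Il10ra (0.0960), Ptpn1 (0.0649), Id1 (0.0640) and Il18rap (0.0737) were lost, 502 genes were called higher and 629 lower, and 17 pathway and target genes, 4 STAT3 targets and 3 class I receptors were called lower. With the replicate block and the gene length offset, 1 member was called higher, and Id1 (0.0685) and Il18rap (0.0641) lost their calls. With the gene length offset 1 member (Stat2, 0.31) was called higher and 3 lower (Jak1, Jak2 and Stat4), and with no filter on low counts 1 was higher (Stat2) and 2 lower (Jak2 and Stat4). Leaving out each library in turn gave 0 to 1 members higher and 0 to 2 lower, 328 to 1097 genes higher and 411 to 1311 lower (more without DB2313 replicate 3, fewer without DB2313 replicate 2 or any of the Control libraries), 13 to 37 pathway and target genes lower, 8 to 16 STAT2 and IRF9 targets higher and 3 to 10 STAT3 targets lower. Of the 26 other genes named by the rule, 26 kept their sign and 19 their call under all alternatives. The share of Stat3 fell by 1.79 points, not 1.01, when counts were not divided by length. The causes of these differences were not tested. Median log2 fold changes were higher for shorter genes (0.11 under 1024 bases) than for longer ones (-0.07 over 8192 bases), and 8 of 9 members are longer than 4096 bases. Depth limited Il7 and Ifi44 more than the members.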
